A study of Mus musculus with 2 samples.

Results

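The 10 genes described here belong to the interleukin-6 (IL-6) family. They were followed through the cells of regenerating mouse muscle, and they were chosen by name for their place in the pathway, as 10 of the 19169 genes listed. They comprise 5 ligands (Il6, Lif, Osm, Il11 and Clcf1), 4 receptor chains (Il6ra, Il6st, Osmr and Lifr) and the feedback inhibitor Socs3. Single-cell RNA sequencing was done on gastrocnemius muscle 14 days after cardiotoxin, a snake venom toxin that kills muscle fibers and sets off regeneration. The muscle came from male mice on a C57BL/6J background, with 1 library from wild-type (WT) mice and 1 from littermates that lacked Gsdme in every cell (KO), and both genotypes had received cardiotoxin. Gsdme encodes gasdermin E, a pore-forming protein of pyroptosis. The age of the mice was not given, and the methods name several mice per genotype for these cells without saying how they were shared out or pooled.

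With 1 library per genotype there was no replicate, so no test was made, and every interval below covers counting error only. A difference between the libraries can therefore be given with a size, but it cannot be told apart from a difference between 2 preparations of the same genotype. Counts are UMIs, each standing for 1 captured RNA molecule, and a level is the count scaled to a total of 1000000 UMIs in the same cells (CPM). The WT library held 6354 cells with 44758518 UMIs and a median of 5740 UMIs per cell, and the KO library held 7078 cells with 50930009 UMIs and a median of 5962.5. The libraries shared 4 cell barcodes. Gsdme RNA did not separate the labels, at 5.03 CPM from 225 UMIs under the WT label (95% interval 4.39 to 5.73) and 4.65 CPM from 237 UMIs under the KO label (4.08 to 5.29). The direction of every ratio of KO over WT rests on the labels alone.

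Cells were grouped by their own genes, without the members, and named from marker genes. Fibro-adipogenic progenitors (FAPs), the connective tissue progenitors of muscle, formed the largest class, with 2110 WT and 2528 KO FAP-like cells, of which 402 and 359 were tenocyte-like. There were 1266 and 1264 endothelial-like cells, 821 and 998 macrophage-like cells, 304 and 357 pericyte-like cells, 247 and 244 cells like muscle stem cells (MuSCs) and 180 and 198 smooth muscle-like cells. FAP markers summed to 51122 and 46762 CPM in FAP-like cells and macrophage markers to 14187 and 13905 CPM in macrophage-like cells. Other classes had mixed markers. In pericyte-like cells endothelial markers summed to 5249 and 5652 CPM beside 7927 and 10041 CPM of pericyte markers. Smooth muscle-like cells held 19028 and 22826 CPM of the 6 pericyte markers, more than the 7723 and 5892 CPM of the 4 smooth muscle markers. That was also more of the pericyte markers than pericyte-like cells held, so the name does not tell these cells from pericytes. MuSC-like cells held 3024 and 2944 CPM of FAP markers beside 2722 and 4237 CPM of MuSC markers. Clusters that met no name held 13.7% of the WT cells and 12.7% of the KO cells.

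Members of the IL-6 family signal through a shared receptor chain, gp130, encoded by Il6st. IL-6, IL-11 and the cardiotrophin-like cytokine CLCF1 first bind a receptor chain of their own, while LIF and oncostatin M do not. LIF and CLCF1 bring gp130 together with the LIF receptor, and oncostatin M also with the oncostatin M receptor. Kinases of the JAK family then phosphorylate STAT3, which enters the nucleus and turns on target genes, among them Socs3, whose product blocks gp130 and so limits the signal. In injured muscle, IL-6 and LIF are known to act on satellite cells, and macrophages are a known source of oncostatin M.

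Il6, Osmr and Socs3 were higher together in the FAP-like cells of the KO library, and their promoter sequence is shown because it marks where the usual inducers of these genes could bind. Each window is the 250 bases before a RefSeq transcript start of the gene on GRCm38.p6, called the start below. The windows are chr5:30012864-30013113 on the plus strand for Il6, chr11:117969367-117969616 on the minus strand for Socs3 and chr15:6874314-6874563 on the minus strand for Osmr. The last 2 lie inside the bounds of their genes on mm10, chr11:117966079-117970047 and chr15:6813577-6874969, so sequence further upstream was not searched. Capitals mark the matches found on either strand to TGANTCA (AP-1), TTGCNCAA (C/EBP), GGGANNTTC (NF-kB), TTCNNNGAA (STAT) and TGACGTCA (CRE).
Il6: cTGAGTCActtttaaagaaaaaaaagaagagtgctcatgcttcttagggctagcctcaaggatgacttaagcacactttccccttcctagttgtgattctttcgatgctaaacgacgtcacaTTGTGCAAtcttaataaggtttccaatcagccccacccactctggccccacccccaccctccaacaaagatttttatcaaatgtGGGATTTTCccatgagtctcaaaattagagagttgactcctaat
Socs3: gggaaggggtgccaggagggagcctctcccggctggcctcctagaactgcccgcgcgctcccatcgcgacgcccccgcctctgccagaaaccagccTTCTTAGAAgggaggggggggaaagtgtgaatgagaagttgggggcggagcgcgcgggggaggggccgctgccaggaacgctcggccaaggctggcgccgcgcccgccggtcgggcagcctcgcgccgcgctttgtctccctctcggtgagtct
Osmr: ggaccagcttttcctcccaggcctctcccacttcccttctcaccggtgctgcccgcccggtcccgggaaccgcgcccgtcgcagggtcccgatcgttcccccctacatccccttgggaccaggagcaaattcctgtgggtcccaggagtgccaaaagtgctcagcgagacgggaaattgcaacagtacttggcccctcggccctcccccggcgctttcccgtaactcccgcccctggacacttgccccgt
The Il6 window held an AP-1 match 249 to 243 bases before the start, a C/EBP match on the opposite strand 128 to 121 bases before it and an NF-kB match 44 to 36 bases before it. The Socs3 window held a STAT match 154 to 146 bases before the start, and the Osmr window held none of these letters. Such matches are not rare, since the share of all 32851 windows with a match was 6.75% for AP-1, 2.61% for C/EBP, 3.23% for NF-kB, 7.02% for STAT and 1.55% for CRE. A match describes the sequence and does not show that a factor was bound. Windows were found for 8 of the 10 members, and besides those shown, Lif and Il11 each held an AP-1 match and Il6ra, Il6st and Lifr held none. On mm10 the genes for the ligands Osm (chr11:4236420-4241026) and Lif (chr11:4257557-4272514) lie 16530 bases apart, and those for the receptor chains Osmr (chr15:6813577-6874969) and Lifr (chr15:7090614-7197489) lie 215644 bases apart.

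The cells that held each member's RNA differed between the members. FAP-like cells held 56.0% of all Il6 UMIs in the WT library and 72.2% in the KO library, while pericyte-like cells held 21.2% and 10.3%. Macrophage-like cells held 82.8% of the Osm UMIs in the WT library and 82.1% in the KO library. FAP-like cells were also the main holders of Il11, with 59.7% and 66.4% of its UMIs. Clcf1 stood apart in that the 247 WT and 244 KO MuSC-like cells held 39.3% and 39.6% of its UMIs. For Il6ra, the receptor chain that IL-6 binds first, FAP-like cells (38.1% and 38.7%) and macrophage-like cells (36.8% and 41.2%) held similar shares.

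**Figure D1:**
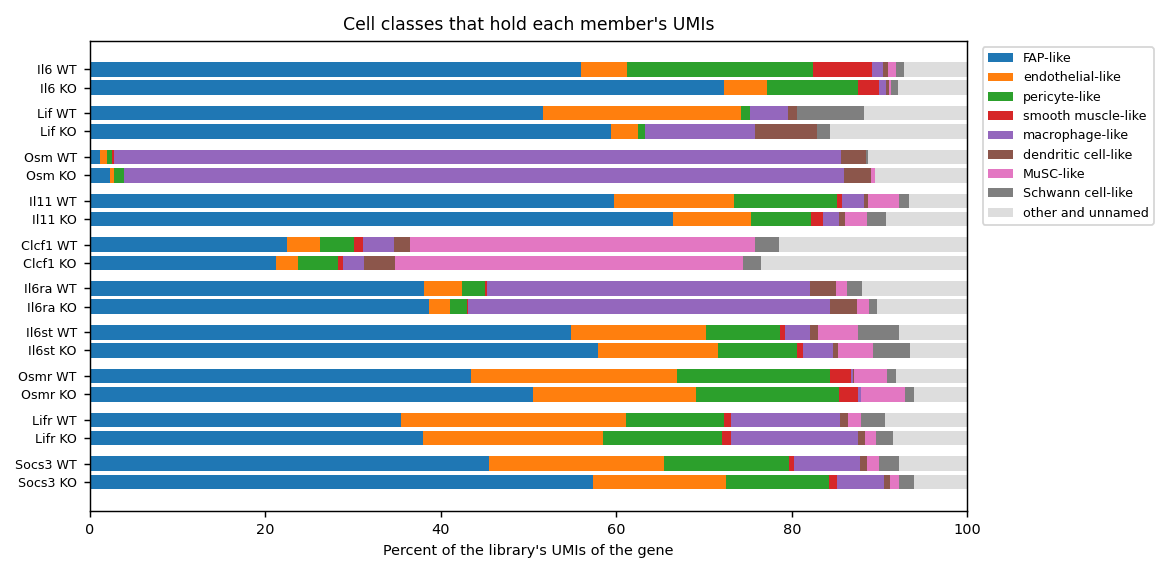
Share of each member's UMIs held by each class of cells, in percent of the member's UMIs in that library, as 1 stacked bar per member and library, with a color for each class. FAP-like cells held 56.0% and 72.2% of the Il6 UMIs, macrophage-like cells 82.8% and 82.1% of the Osm UMIs, and MuSC-like cells 39.3% and 39.6% of the Clcf1 UMIs.

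Il6 encodes IL-6 itself. Per cell RNA, smooth muscle-like cells had its highest level among the classes with at least 50 cells in each library, at 699 CPM (95% interval 624 to 781) in the WT library and 764 (690 to 843) in the KO library. These cells held more pericyte markers than the pericyte-like cells did, so the level cannot be credited to smooth muscle alone. Pericyte-like cells followed in the WT library at 218 CPM (205 to 232) and FAP-like cells came next at 143 (138 to 149). In the KO library this order was turned, with FAP-like cells at 511 CPM (502 to 520) above pericyte-like cells at 315 (300 to 331). Pericyte-like cells held 5249 and 5652 CPM of endothelial markers, beside 6875 and 7605 CPM in endothelial-like cells. The part of endothelial RNA in the Il6 level and ratio of pericyte-like cells was not tested. The WT levels of Schwann cell-like (32.0 CPM), endothelial-like (30.2 CPM), dendritic cell-like (27.3 CPM) and MuSC-like cells (22.6 CPM) had overlapping intervals.

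**Figure D2:**
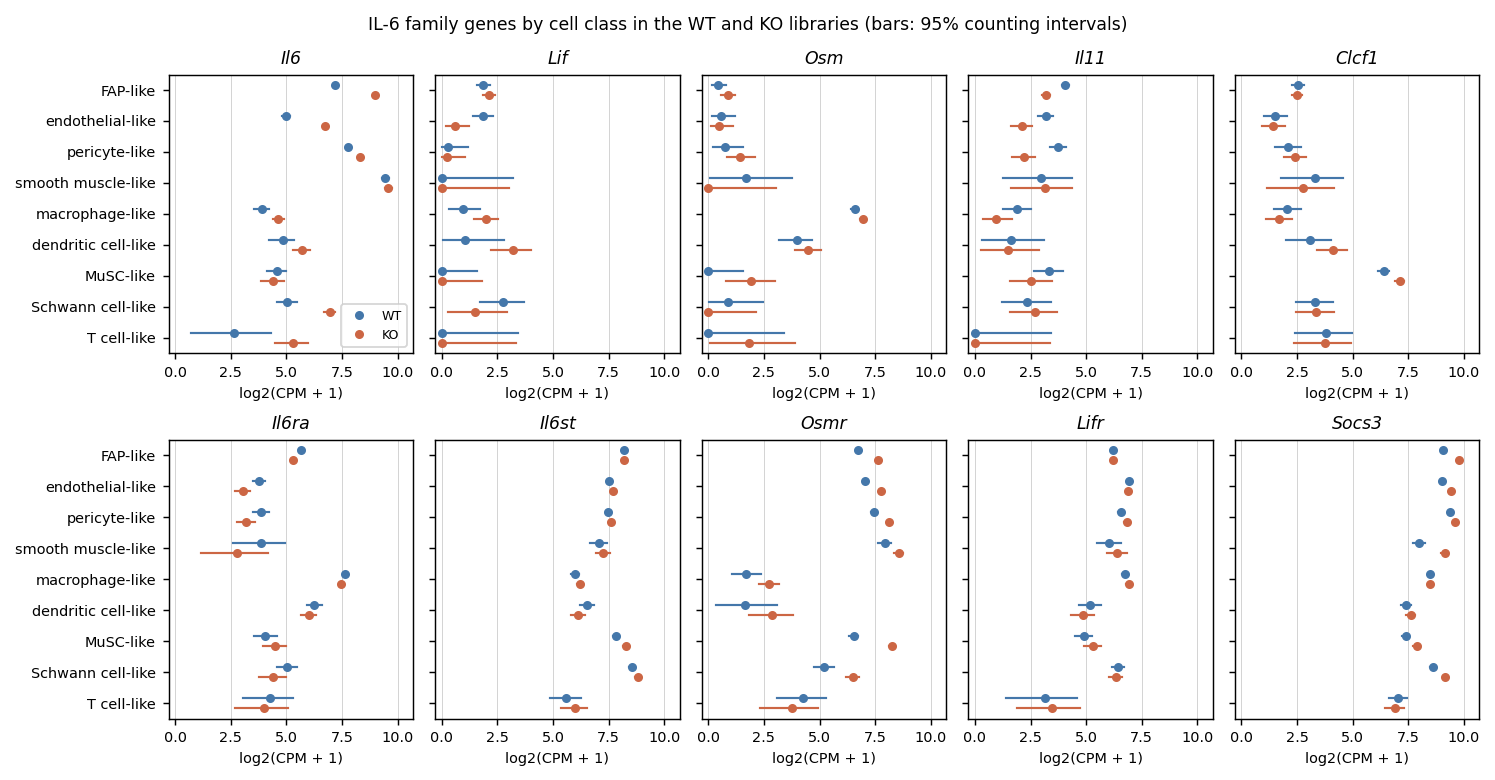
Level of each member in each class of cells, as log2(CPM + 1), with points for the WT and KO libraries and bars for the exact 95% Poisson interval of the count. Il6 lay at 143 CPM in WT and 511 CPM in KO FAP-like cells, while Il6st lay at 287 and 294 CPM.

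In FAP-like cells there were 2602 Il6 UMIs in the WT library and 11675 in the KO library, and the level was 3.56-fold higher in the KO library (log2 ratio of KO over WT 1.83, 95% interval 1.77 to 1.89). More cells carried the RNA, with 29.6% of WT and 54.7% of KO FAP-like cells holding an Il6 UMI. After each cell was thinned to 1000 UMIs, these shares were 11% and 27.1%, and the positive cells held 1.57 and 2.22 Il6 UMIs each. A minority of the cells held most of it, since the tenth of FAP-like cells with the most Il6 UMIs had 75% of them in the WT library and 59.0% in the KO library, with up to 69 and 106 UMIs in 1 cell. Both the share of cells and the count per positive cell were thus higher in the KO library.

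All 4 FAP-like groups and the tenocyte-like cells had more Il6 in the KO library. Cells marked by Sfrp4 and Gdf10 had the highest levels, 397 CPM in WT and 1219 in KO (log2 ratio 1.62). Cells marked by Clu, Cyp2f2 and Myoc went from 208 CPM in WT to 719 in KO (1.79), and cells marked by Hsd11b1 and Mme from 161 to 584 (1.86). Cells marked by Pi16 and Dpp4, genes of a progenitor-like state of FAPs, had 154 and 437 CPM (1.5). Tenocyte-like cells had the lowest levels of the FAP-like class, 35.3 and 106 CPM (1.59). The log2 ratios of the groups thus lay between 1.5 and 1.86 although their WT levels differed by far more.

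Outside the FAP-like cells the size of the difference in Il6 varied. Endothelial-like cells had 30.2 CPM in WT and 105 in KO (log2 ratio 1.79, 95% interval 1.58 to 2.01), and the highest levels among them were in venous endothelial-like cells, at 161 and 446 CPM. Schwann cell-like cells had 32.0 and 124 CPM (1.95, 1.43 to 2.50). The difference was smaller in pericyte-like cells, which also held endothelial markers, at 218 and 315 CPM (0.53, 0.41 to 0.64). In smooth muscle-like cells the interval held 0 (0.13, -0.09 to 0.35). MuSC-like cells had 42 and 29 UMIs, and the interval held 0 there too (-0.18, -0.91 to 0.54).

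Lymphocyte-like cells, meaning T cell-, B cell- and NK cell-like cells, were taken for comparison. Whether their Il6 RNA was their own or free RNA was not tested. T cell-, B cell- and NK cell-like cells together had 3 Il6 UMIs or 4.51 CPM (0.931 to 13.2) in the WT library and 32 UMIs or 41.7 CPM (28.5 to 58.8) in the KO library, with a UMI in 2 of 152 and 10 of 170 cells, or 1.32% and 5.88%, at median depths of 3756.5 and 3486.5 UMIs. FAP markers were also found in them, at up to 2853 CPM in the WT library (T cell-like) and 6838 CPM in the KO library (B cell-like). A low-depth unnamed cluster led by hemoglobin genes, with a median of 786 UMIs per cell, had more, at 93.6 CPM in WT and 431 in KO. Against the lymphocyte-like cells, the KO levels of macrophage-like (23.7 CPM) and MuSC-like cells (20.02 CPM) were lower. WT macrophage-like cells (13.9 CPM) had an interval that overlapped that of the WT lymphocyte-like cells. Macrophage-like cells marked by Trem2 and Ms4a7 had 8.96 WT and 28.5 KO CPM (log2 ratio 1.67, 0.98 to 2.42). Those marked by Lyve1 and Folr2 had 20.1 and 17.9 CPM, with an interval that held 0 (-0.16, -0.82 to 0.50). The KO levels of endothelial- (105 CPM), tenocyte- (106 CPM), Schwann cell- (124 CPM) and pericyte-like cells (315 CPM) were above the lymphocyte-like level but below that of the hemoglobin-led cluster. FAP- and smooth muscle-like cells, at 511 and 764 CPM, were above both. The part of free RNA or of droplets with more than 1 cell in these levels was not tested.

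Osm encodes oncostatin M. Macrophage-like cells had 415 Osm UMIs in the WT library and 655 in the KO library, or 94.3 and 122 CPM (log2 ratio 0.37, 95% interval 0.19 to 0.55). Macrophage-like cells marked by Lyve1 and Folr2, markers of resident macrophages, had 119 and 268 UMIs, or 61.2 and 109 CPM (0.84, 0.52 to 1.16). Those marked by Trem2 and Ms4a7 had 296 and 387 UMIs, or 121 and 133 CPM, with an interval that held 0 (0.14, -0.08 to 0.36). The Osm ratio was larger in the Lyve1 Folr2 cells, which had the lower level in both libraries, and the difference between the groups was not tested. Neutrophil-like cells had 84.6 and 90.3 CPM from 11 and 13 UMIs. FAP-like cells had 6 and 19 Osm UMIs, or 0.331 and 0.831 CPM.

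Il11 encodes IL-11, a stromal cytokine, and it was lower in the KO library, opposite to Il6. FAP-like cells had 285 WT and 186 KO UMIs, or 15.7 and 8.14 CPM (log2 ratio -0.95, 95% interval -1.22 to -0.68). In the Clu Cyp2f2 Myoc group the levels were 38.3 and 6.73 CPM (-2.51, -3.49 to -1.64), and in the Sfrp4 Gdf10 group 30.4 and 8.31 CPM (-1.87). These groups had the most Il11 per UMI in the WT library, and their KO levels lay within the range of the other FAP-like groups, 4.03 to 9.44 CPM. Pericyte-like cells had 12.4 and 3.58 CPM (-1.80, -2.63 to -1.02), and endothelial-like cells had 8.09 and 3.28 CPM (-1.30, -2.03 to -0.62). Tenocyte-like cells went the other way, from 18 WT UMIs to 41 KO UMIs (1.39, 0.56 to 2.27). The FAP-like groups that had more Il6 in the KO library thus had less Il11, although the interval held 0 in the Pi16 Dpp4 group (-0.86, -1.87 to 0.12), and tenocyte-like cells had more of both.

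Lif, which encodes leukemia inhibitory factor, was sparse, with 93 UMIs in the whole WT library and 128 in the KO library. FAP-like cells held 48 and 76 of these, or 2.64 and 3.32 CPM, and the interval of the log2 ratio held 0 (0.33, -0.21 to 0.88). Endothelial-like cells had 21 WT and 4 KO UMIs (-2.32, -4.32 to -0.75), of which 18 and 4 were in lymphatic endothelial-like cells. Macrophage-like cells had 4 and 16 UMIs (1.71, 0.08 to 3.75), and dendritic cell-like cells had 1 and 9 (2.94, 0.09 to 8.40). No Lif UMI was seen in MuSC-like cells of either library, which allows a level of up to 1.62 CPM in WT and 2.07 in KO, the value of 3 UMIs. These Lif values rest on few molecules, and their intervals are wide.

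Clcf1 encodes CLCF1, a ligand of the ciliary neurotrophic factor receptor. MuSC-like cells had 154 WT and 200 KO UMIs, or 82.9 and 138 CPM (log2 ratio 0.74, 95% interval 0.42 to 1.05). FAP-like cells had 4.85 and 4.68 CPM, a ratio whose interval held 0 (-0.05, -0.47 to 0.37). NK cell-like cells had a level like that of MuSC-like cells, 87.3 and 64.4 CPM, from 13 and 8 UMIs. In the KO library, neutrophil-like cells (83.4 CPM, 12 UMIs) and B cell-like cells (61.2 CPM, 15 UMIs) were at the level of NK cell-like cells as well. The level of MuSC-like cells thus rests on the most UMIs, and those of NK cell-, neutrophil- and B cell-like cells on few.

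**Figure D3:**
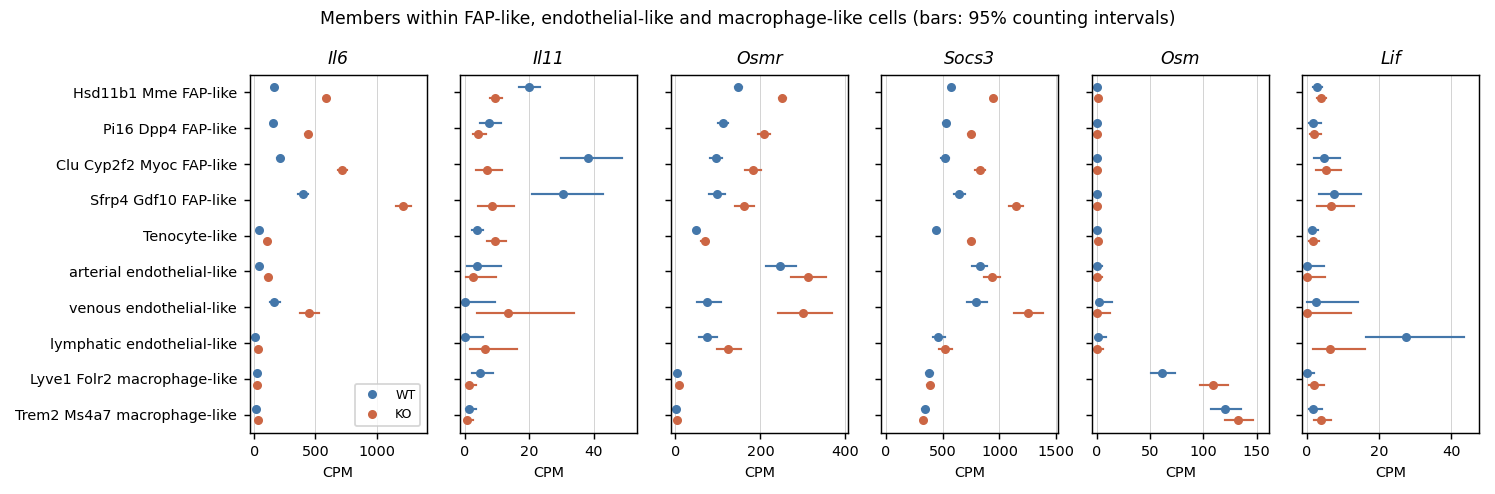
Levels of 6 members (panels) within the named FAP-like, endothelial-like and macrophage-like groups (rows), in CPM on a linear axis that differs between panels, with points for the WT and KO libraries and bars for the exact 95% Poisson interval. Il6 lay higher in the KO library in all 4 FAP-like groups and in tenocyte-like cells, whereas Il11 lay lower in the Clu Cyp2f2 Myoc group (38.3 and 6.73 CPM) and higher in tenocyte-like cells (3.61 and 9.44 CPM).

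Osmr encodes the oncostatin M receptor chain that pairs with gp130. FAP-like cells had 1934 WT and 4532 KO UMIs, or 107 and 198 CPM (log2 ratio 0.90, 95% interval 0.82 to 0.97). Cells with an Osmr UMI made up 45.2% and 64.5% of them, and 9.86% and 19.97% after thinning. The ratio was largest in MuSC-like cells among the classes with at least 50 cells in each library, at 91.6 and 307 CPM from 170 and 444 UMIs (1.74, 1.48 to 2.01, or 3.35-fold). There 35.6% and 63.5% of cells held a UMI, and 7.41% and 22.9% after thinning. Endothelial-like cells had 130 and 219 CPM (0.75, 0.64 to 0.86), pericyte-like cells 172 and 274 (0.67, 0.54 to 0.80) and smooth muscle-like cells 243 and 377 (0.64, 0.29 to 0.99). Schwann cell-like cells had 36.1 and 88.5 CPM (1.29, 0.77 to 1.84). Osmr was therefore higher in the KO library in every one of these stromal, vascular and muscle classes. Macrophage-like cells, the main holders of Osm, had only 2.27 and 5.59 CPM of Osmr. The lymphocyte-like cells had 22.6 CPM (12.6 to 37.2) in WT and 9.11 CPM (3.66 to 18.8) in KO, from 15 and 7 UMIs. Their KO interval thus held the KO level of macrophage-like cells.

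Il6st, which encodes gp130, differed little between the libraries. FAP-like cells had 287 WT and 294 KO CPM (log2 ratio 0.03, 95% interval -0.02 to 0.09), which puts the fold between 0.987 and 1.06 as far as counting error goes. Endothelial-like cells had 183 and 207 CPM (0.18, 0.08 to 0.29), and Schwann cell-like cells had 372 and 448 (0.27, 0.08 to 0.45). MuSC-like cells had the largest of these ratios, with 228 and 313 CPM (0.45, 0.26 to 0.65). Its RNA was widespread, with a UMI in 80.8% and 84.4% of FAP-like cells and in 24.7% and 28.7% of macrophage-like cells.

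Il6ra encodes the chain that gives a cell its own response to IL-6. Macrophage-like cells had 196 WT and 175 KO CPM (log2 ratio -0.17, 95% interval -0.30 to -0.03), and FAP-like cells had 49.3 and 38.5 CPM (-0.36, -0.49 to -0.22). Within the FAP-like cells the Pi16 Dpp4 group had the most, 130 and 84.6 CPM (-0.62). Endothelial-like cells had 12.4 and 7.22 CPM (-0.79, -1.29 to -0.30) and pericyte-like cells 13.6 and 8.10 CPM (-0.74, -1.34 to -0.16). Il6ra was thus lower in the KO library in the FAP-, macrophage-, endothelial- and pericyte-like cells. Among macrophage-like cells the Trem2 Ms4a7 group was lower (-0.35, -0.56 to -0.14). In the Lyve1 Folr2 group the interval held 0 (-0.05, -0.23 to 0.13).

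Lifr encodes the LIF receptor chain. In FAP-like cells it stood at 74.0 WT and 73.5 KO CPM (log2 ratio -0.01, 95% interval -0.11 to 0.10), but the groups differed in direction. The Hsd11b1 Mme group had 129 and 103 CPM (-0.33, -0.46 to -0.21), and tenocyte-like cells had 27.7 and 40.1 CPM (0.53, 0.20 to 0.87). Among macrophage-like cells the Lyve1 Folr2 group had 178 and 192 CPM and the Trem2 Ms4a7 group 50.9 and 59.0. Endothelial-like cells had 121 and 118 CPM. Pericyte-like cells had 93.5 and 114 CPM (0.28, 0.10 to 0.46). No class with at least 50 cells in each library had a Lifr interval below 0.

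Socs3 encodes SOCS3, the inhibitor that gp130 signalling itself induces. FAP-like cells had 9606 WT and 19881 KO UMIs, or 529 and 870 CPM (log2 ratio 0.72, 95% interval 0.68 to 0.75), with a UMI in 75.3% and 84.9% of cells. Tenocyte-like cells had 444 and 747 CPM (0.75), and the Sfrp4 Gdf10 group had the highest levels of the FAP-like groups in the KO library, 647 and 1145 CPM (0.82). Endothelial-like cells had 523 and 688 CPM (0.40, 0.34 to 0.46), Schwann cell-like cells 391 and 572 (0.55, 0.37 to 0.72) and MuSC-like cells 167 and 235 (0.49, 0.26 to 0.72). Smooth muscle-like cells had 252 and 560 CPM (1.15, 0.83 to 1.48), although their Il6 interval held 0. In macrophage-like cells the levels were 359 and 352 CPM and the interval held 0 (-0.03, -0.13 to 0.07). The higher Socs3 of the KO library was thus seen in stromal, vascular, glial and MuSC-like cells and was not seen in macrophage-like cells. Neutrophil-like cells went the other way, with 377 and 174 CPM from 49 and 25 UMIs in 24 and 32 cells (-1.12, -1.87 to -0.39).

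**Figure D4:**
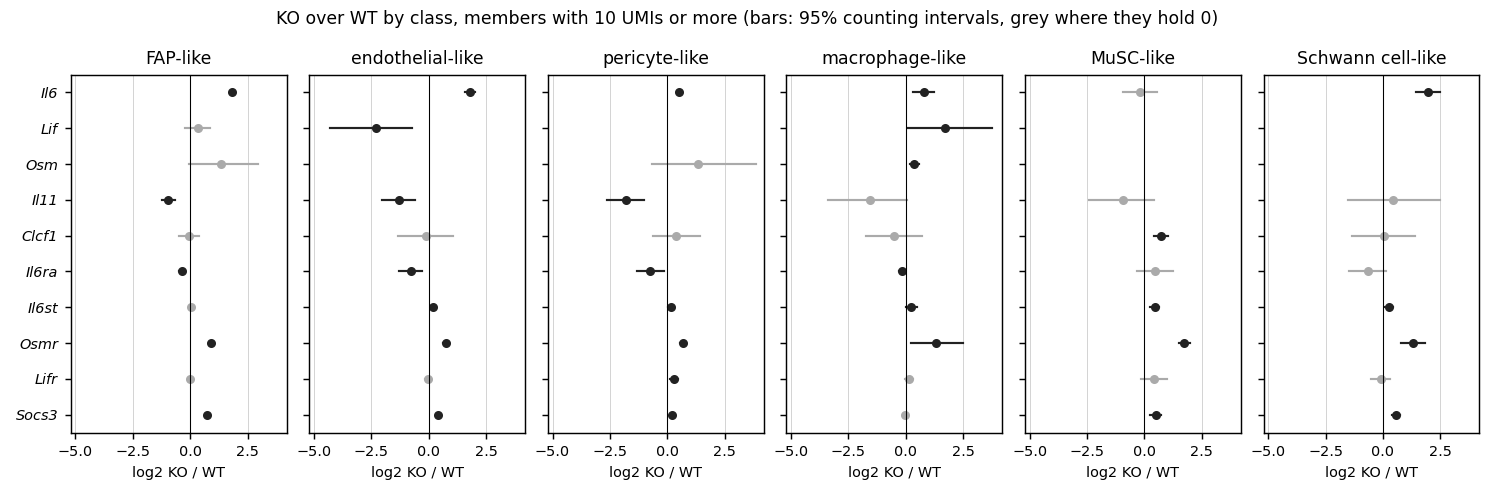
KO over WT in 6 classes of cells, as a log2 ratio on the x axis, with a point for each member that had at least 10 UMIs, with bars for the 95% interval of the ratio, which covers counting error only, in grey where it holds 0, and a line at 0. In FAP-like cells Il6 (1.83), Osmr (0.90) and Socs3 (0.72) lay above 0, Il11 (-0.95) and Il6ra (-0.36) below it, and the intervals of the other 5 members held 0.

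Set against all genes, the members were counted by 2 rules, a difference of at least 2-fold and an interval that leaves out 0, among genes with at least 10 UMIs in the libraries together. In FAP-like cells 2 of 10 members were at least 2-fold higher in the KO library, Il6 and Osm, the latter from 25 UMIs with an interval that held 0, and 0 were 2-fold lower, against 3.1% and 3.79% of 14658 genes. By interval, 3 members lay above 0 and 2 below it, against 15.5% and 21.3% of these genes. In endothelial-like cells 1 of 9 members was 2-fold higher (Il6) and 2 were lower (Lif and Il11), against 2.79% and 3.03% of 12886 genes, while 4 lay above 0 and 3 below it by interval, against 16.1% and 12.1%. In macrophage-like cells 2 of 10 were 2-fold higher (Lif and Osmr, from 20 and 40 UMIs) and 1 was lower (Il11, whose interval held 0), against 3.14% and 4.81% of 11609 genes, while 5 lay above 0 and 1 below it, against 10.6% and 14.6%. These 5 include Il6, whose KO level in macrophage-like cells was below that of lymphocyte-like cells. They also include Osmr, whose KO level of 5.59 CPM lay within the lymphocyte-like interval of 3.66 to 18.8 CPM, from 7 UMIs. In MuSC-like cells 1 of 8 was 2-fold higher (Osmr) and 0 were lower, against 7.34% and 5.37% of 10377 genes, while 4 lay above 0 and 0 below it, against 14.6% and 12.4%. With 8 to 10 members these counts are small, and they are given as a description.

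The summed immediate-early and heat-shock genes that tissue digestion is known to raise were also higher in the KO library in these classes. Their sum was 32153 WT and 42471 KO CPM in FAP-like cells, 55811 and 64366 in endothelial-like cells, 33942 and 47939 in MuSC-like cells and 43831 and 45838 in macrophage-like cells. The median cell differed less, at 27609 and 28988 CPM in FAP-like cells, and in macrophage-like cells it was lower in the KO library, at 41600 and 35608 CPM. In FAP-like cells 22 of 28 of these genes lay above 0 by interval and 5 below, with 8 at least 2-fold higher, led by the heat-shock genes Hspa1b (log2 ratio 1.98), Hspa1a (1.76) and Dnajb1 (1.65), while Klf4 (-0.50), Fosb (-0.36) and Klf6 (-0.21) were lower. FAP-like cells were also split into 4 equal bins by the sum of the list, over both libraries. The bins were wide, from 1783 to 20547 CPM in the lowest and from 42328 to 281801 CPM in the highest, which held 436 WT and 724 KO cells. Cells of 1 bin thus need not have had a like level of these genes. From the lowest to the highest bin the log2 ratio of Il6 was 1.93, 2.07, 1.42 and 2.16, and that of Osmr was 0.96, 0.89, 0.90 and 1.04. The ratio of Socs3 was 1.04, 0.74, 0.39 and 0.61, and its level was higher in the highest bin than in the lowest in both libraries, from 230 to 816 CPM in WT and from 473 to 1250 in KO. For Il11 the ratios were 0.30 (-0.38 to 0.99), -0.74, -1.56 and -1.13. Those of Il6ra were -0.45, -0.59, -0.23 (-0.50 to 0.05) and 0.14 (-0.18 to 0.47). Il6 and Osmr were thus higher in the KO library in each of the 4 bins, whereas the lower Il11 was not seen in the lowest bin. The lower Il6ra was not seen in the highest bin, and in the bin before it the interval held 0. The part of tissue digestion in these differences was not tested.

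**Figure D5:**
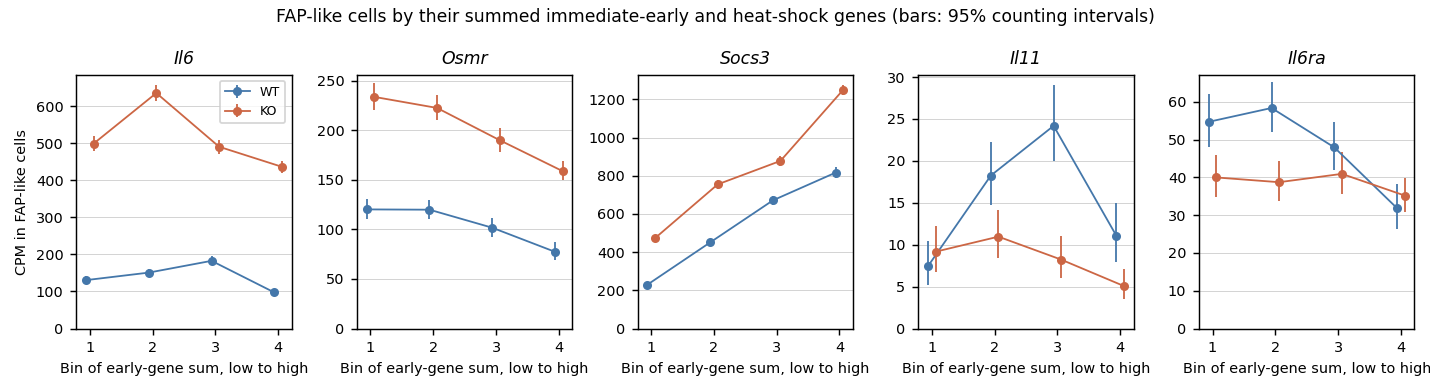
Levels in FAP-like cells split into 4 equal bins by their summed immediate-early and heat-shock genes, in CPM on a linear axis that starts at 0, with the bins in order from the lowest to the highest, with points for the WT and KO libraries and bars for the exact 95% Poisson interval. Socs3 was higher in the highest bin than in the lowest in both libraries, from 230 to 816 CPM in WT and from 473 to 1250 CPM in KO, and the log2 ratio of Il6 was between 1.42 and 2.16 in all 4 bins.

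RNA of muscle fibers and red cells, taken as a sign of free RNA, also differed. Its sum in FAP-like cells was 152 WT and 603 KO CPM, to which the hemoglobin gene Hbb-bs gave 28.2 and 297 CPM, and 10 of 11 of these genes lay above 0 by interval and 1 below. The median FAP-like cell had 82.8 and 126 CPM. In endothelial-like cells the sums were 1655 and 5569 CPM, with 4 genes above 0 and 7 below, but the median cell had 281 and 302 CPM, and in macrophage-like cells they were 801 and 897 CPM, with 5 above 0 and 5 below. MuSC-like cells had 706 and 612 CPM, with 0 above 0 and 3 below. The sums differed most in smooth muscle-like cells, at 450 WT and 20579 KO CPM, with 6 of 10 genes above 0 and 0 below. Red cell markers there summed to 126 and 20161 CPM, and the median cell had 216 and 559 CPM of the list. The part of free RNA in the differences of the members was not tested.

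In the same FAP-like cells, thinned to 1000 UMIs, Osmr was seen in 14% of Il6-positive and 9.30% of Il6-negative WT cells, and in 24.2% and 18.4% of KO cells. Socs3 was seen in 46.1% and 33.0% of WT cells, and in 53.8% and 46.2% of KO cells. Osmr and Socs3 were thus found more often beside Il6, and both were more frequent in the KO library also among the cells without an Il6 UMI. Osm-positive macrophage-like cells held Il6ra in 21.3% of WT and 17.4% of KO cells, close to the 19.5% and 18.2% of Osm-negative cells.

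The wider pathway was read from lists of genes with other roles. By interval, 15.5% of all 14658 genes in FAP-like cells lay above 0 and 21.3% below it. Of the other ligands and receptors of the family, 7 of 13 had at least 10 UMIs in FAP-like cells, where 1 lay above 0 by interval, 2 below it and 4 held 0. Cntfr, the ciliary neurotrophic factor receptor chain, was lower (log2 ratio -0.41), as was Il11ra1 (-0.07), which shares sequence with close copies and is uncertain. Of the JAK, STAT and SHP2 signalling genes, 4 of 14 lay above 0 and 2 below it, led by the kinase gene Tyk2 (0.47), the protease gene Adam17 (0.42), whose product sheds the IL-6 receptor, and the kinase gene Jak2 (0.28), with the adaptor gene Grb2 (-0.23) and Stat3 (-0.08) lower. The medians of these lists were 0.05 and 0.12, against -0.03 over all genes in FAP-like cells. None of the genes in either list differed by 2-fold there.

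Feedback genes and known STAT3 targets were higher more often than lower in FAP-like cells. The shares over all genes there were 15.5% above 0 and 21.3% below it. Of 12 feedback genes, 7 lay above 0, 0 below it and 5 held 0, with a median of 0.18. The list includes Arid5a, whose product stabilises Il6 mRNA and so acts the other way. Zc3h12a, which encodes an RNase that degrades Il6 mRNA, had 16.6 WT and 40.3 KO CPM (log2 ratio 1.28), and the phosphatase gene Ptpn2 (0.90) and Zfp36 (0.88), whose product destabilises cytokine mRNAs, were higher too. Of 25 measured STAT3 targets, 18 lay above 0 and 5 below it, with a median of 0.21. The acute-phase genes Hp (5 and 54 UMIs, 3.10) and Serpina3n (1.16) and the adhesion gene Icam1 (0.97) led those that were higher. Cebpb, a transcription factor gene, was lower at 739 WT and 252 KO CPM (-1.56), as were Vegfa (-0.67) and Bcl2l1 (-0.41). The early-gene list holds 1 of these feedback genes, Zfp36, and 2 of these targets, Fos and Junb.

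In MuSC-like cells, where the Osmr ratio was largest, the medians of the feedback and target lists were larger than in FAP-like cells, a difference that was not tested. Of 11 feedback genes with at least 10 UMIs, 7 lay above 0 and 0 below it, with 5 at least 2-fold higher and a median of 0.91, against 0.04 over all genes in these cells. Zc3h12a (2.01), Cish (1.70) and Ptpn2 (1.36) led them. Of 21 STAT3 targets, 15 lay above 0 and 3 below it, with a median of 0.58, led by Bcl3 (1.48), Cebpd (1.40) and Mt2 (1.08), while Cebpb was lower (-1.72). Of 14 signalling genes 13 were measured, of which 5 lay above 0 and 1 below it, with a median of 0.08, and of the other family genes 4 were measured, of which 1 lay above 0 and 0 below it. The early-gene list of MuSC-like cells had 22 of 28 above 0 and 2 below it. Over all genes in these cells, 14.6% lay above 0 and 12.4% below it.

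In macrophage-like cells, where the interval of Socs3 held 0, 7 of 12 feedback genes lay above 0 and 2 below it, and 11 of 22 STAT3 targets lay above 0 and 5 below it. Timp1 (1.73), Vegfa (1.08) and Mt2 (0.73) were the leading targets, while Cebpb (-1.19), Fos (-0.47) and Irf1 (-0.38) were lower. Of 14 signalling genes 3 lay above 0 and 1 below it, and of 5 other family genes 0 lay above or below. Of the early genes 15 lay above 0 and 12 below it. Over all genes, 10.6% lay above 0 and 14.6% below it in macrophage-like cells, and 16.1% and 12.1% in endothelial-like cells. Endothelial-like cells had 6 of 11 feedback genes above 0 and 1 below it, 9 of 23 STAT3 targets above 0 and 6 below it, 4 of 14 signalling genes above 0 and 1 below it, and 1 of 3 other family genes above 0 and 0 below it. Arid5a (0.73), whose product stabilises Il6 mRNA and so is not an off-switch, and Zfp36 (0.73) led the feedback list in endothelial-like cells. Mt1 (1.12) led the targets, and Socs1 (-0.31) and Cebpb (-1.77) were lower. Cebpb was lower in the KO library in each of the 9 classes with at least 50 cells in each library.

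Known inducers of Il6 and genes that NF-kB raises with it lay above 0 more often than below it in FAP-, MuSC-, macrophage- and endothelial-like cells. This was not so in T cell-like cells, where 3 of 14 lay above 0 and 4 below it, against 5.65% and 8.3% of all genes. In FAP-like cells 13 of 20 lay above 0 and 0 below it, with 5 at least 2-fold higher and a median of 0.51, led by Tnfaip3 (1.39), Ccl7 (1.26) and Il1b (1.2). Il1b was at only 2.26 and 5.21 CPM in FAP-like cells, and the part of free RNA in it was not tested. In MuSC-like cells 12 of 18 lay above 0 and 2 below it, with a median of 0.98, and the chemokine gene Cxcl2 had 26.9 WT and 420 KO CPM (3.96). In macrophage-like cells 11 of 20 lay above 0 and 5 below it, with a median of 0.38. There Il1b, which encodes the inducer interleukin-1 beta, had 236 and 1017 CPM (2.11), and Csf3 (2.24) and Il1a (1.13) were higher, while Cxcl1 (-1.41), Tlr4 (-0.58) and Nfkbia (-0.36) were lower. Endothelial-like cells had 7 of 18 above 0 and 3 below it, led by Tnfaip3 (0.66).

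Finally, the genes whose levels were most like those of 4 members were found over the 28 class sums of both libraries, among 12205 genes. These sums share libraries and cell types, so the Pearson r is a description with no p. Il6 was most like Ednra (0.85), Pdgfrb (0.78), Pla1a (0.75) and Aoc3 (0.75), several of them known in mural cells. Osm was most like a set of mostly myeloid genes, Lilr4b (0.94), Cd33 (0.91), Pilrb1 (0.91), Ftl1-ps1 (0.90) and Fcgr3 (0.90). Socs3 was most like Atf3 (0.87), Ltbr (0.86), Hbegf (0.86), Rai14 (0.85) and Lifr (0.85), of which Atf3 is in the early-gene list. For the sparse Lif, Pygl (0.75), Gpr35 (0.73), Cnbd2 (0.73), 1600010M07Rik (0.72) and Gk (0.71) came first.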

How the data were processed

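The deposited table held natural log values, ln(1 + UMIs per 10000) for each cell, which the authors had made with Cell Ranger and Seurat. The submitters' processing notes name Cell Ranger 2.1.1 and mm10, and the methods name a later version. Per the methods, a 5′ kit was used, doublets were removed and cells high in mitochondrial reads were left out. Whole UMIs were recovered from the values of all 13432 cells, with a largest distance of 0.256 from a whole number. The study's results text names this cell number, and its methods another.

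Cells were integrated (Harmony scheme) and clustered at resolution 0.8 without the members (Python 3.11.15, NumPy 2.4.6, SciPy 1.17.1, scanpy 1.11.5, python-igraph 0.11.9), giving 29 clusters named from marker genes, with parts of the naming rule set after the clusters were seen. Scrublet marked 1.57% of WT and 1.67% of KO cells, which were kept. UMIs were summed per class and library. Levels have exact Poisson intervals, shares exact binomial (Clopper-Pearson) intervals and ratios exact conditional binomial intervals, all at 95%. On simulated counts, drawn as independent UMIs, 186 of 200 intervals held the true ratio. The simulation left out the clumping of a gene's UMIs in few cells, so it does not show how well the intervals cover such genes. Genes of the lists were named by a rule: the 3 largest positive and negative ratios with at least 50 UMIs and an interval leaving out 0, of which some are printed and a few are not reported here. The members and lists were chosen with earlier results of these data known. Alternatives were other resolutions, no integration, members kept in the clustering, thinning, a mean over cells, and leaving out doublets, low-depth cells or tenocyte-like cells.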

Additional observations from a re-analysis of the deposited data

Results flagged for a closer look

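Among named classes and FAP-like groups of 50 or more cells per library, the log2 ratio of KO over WT had opposite signs for 3 members, with intervals that left out 0. The difference between these cells was not tested, since each genotype had 1 library. The Lif ratio was 2.94 in dendritic cell-like cells, from 1 WT and 9 KO UMIs, and -2.32 in endothelial-like cells, from 21 and 4 UMIs. The Il11 ratio was 1.39 in tenocyte-like cells, from 18 and 41 UMIs, and -2.51 in the FAP-like cells marked by Clu, Cyp2f2 and Myoc, from 67 and 13 UMIs. The Lifr ratio was 0.53 in tenocyte-like cells, from 138 and 174 UMIs, and -0.33 in the FAP-like cells marked by Hsd11b1 and Mme, from 950 and 1146 UMIs. In smaller sets of cells, Socs3 was -1.12 in neutrophil-like cells against 0.72 in FAP-like cells, Il6st was -0.94 in an endothelial-like group of 16 and 18 cells against 0.45 in MuSC-like cells, and Osm was -3.45 in an unnamed cluster of 20 and 33 cells, from 6 and 1 UMIs, against 0.84 in the macrophage-like cells marked by Lyve1 and Folr2.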

How the results depend on the processing

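The log2 ratios of Il6, Lif, Il6st, Osmr and Socs3 in FAP-like cells and of Osm in macrophage-like cells were recomputed under the alternatives, giving 65 values, of which 55 lay inside the interval of the reported ratio and 0 turned the sign of a ratio whose interval left out 0. The ranges were 1.72 to 1.92 for Il6, -1.40 to 0.43 for Lif, 0.66 to 0.74 for Socs3, -0.01 to 0.07 for Il6st, 0.83 to 1.19 for Osmr and 0.36 to 0.68 for Osm. Thinning each cell to 1000 UMIs gave -1.40 for Lif, 0.66 for Socs3, 1.19 for Osmr and 0.68 for Osm. A mean over cells gave 0.67 for Socs3 and 1.002 for Osmr. Leaving out tenocyte-like cells gave 1.72 for Il6 and 0.68 for Socs3, and clustering without integration gave 1.92 for Il6. The mean of the ratios within 4 bins of the early genes, an alternative chosen after seeing the data, gave 1.90 for Il6. The cause of these shifts was not tested. With at least 1 UMI in place of 10, all 18 counts of members above and below 0 in the 9 classes stayed as reported. No paired analysis was possible because each genotype had 1 library.

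Depth limits Lif, Il11 and Osm outside their main classes, where counts were low. No mitochondrial gene was in the table, so RNA quality per cell could not be read from it. The deposited Gsdme RNA did not separate the genotypes, and the smooth muscle-like cells had medians of only 1861.5 and 1755.5 UMIs.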

Other observations

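Clusters that met no class name also held member RNA. A cluster led by Igha and Jchain, with FAP markers as its best fit and a median of 854.5 UMIs per cell, had 279 and 545 CPM of Il6, while its Socs3 went the other way from the named FAP-like cells, at 680 and 517 CPM (log2 ratio -0.40, 95% interval -0.71 to -0.08). A cluster led by Lyz1, Retnla and Ccl6 had 69.1 and 355 CPM of Il6, and its Socs3 was 244 and 270 CPM (0.15, -0.09 to 0.39). In mature muscle-like cells Il6 was at 0 UMIs in the WT library and at 36 UMIs in the KO library, all of them in 1 of 64 cells.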
